A study of Mus musculus with 4 samples.

Results

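The cells described here were the 744 cells, of 9303 kept, that scored highest for 5 transcripts: Matn2, Lypd6b, Psat1, Chchd10 and Rcn3. The 4 single-cell RNA libraries of mouse bone marrow cultures were pooled, cells with at least 200 detected genes and at most 10% mitochondrial unique molecular identifiers (UMIs, which count captured RNA molecules) were kept, and each cell was scaled to 10000 UMIs and put on a log(1 + x) scale. The score was the mean of the 5 transcripts on that scale, and the 8% of kept cells with the highest score are called members, while all other kept cells are called the rest. The choice was made on the transcripts of these same cells, so each difference between members and the rest is a description, with no test.

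The libraries came from myeloid-derived suppressor cells (MDSCs, immature myeloid cells able to restrain T cells) grown from mouse bone marrow in IL-6 and GM-CSF at 40 ng/mL each. Isoproterenol (ISO, an agonist of all β-adrenergic receptors) was given at 10 µM with daily renewal, or PBS as its control, and live CD11b+ cells were sorted on day 4. The 4 groups were wild type with PBS (WT+PBS; the study's wild-type strain is C57BL/6J), wild type with ISO (WT+ISO), and cultures labelled as coming from knockout mice, which lack 1 gene in the whole body on a C57BL/6 background, with PBS (KO-labelled+PBS) or ISO (KO-labelled+ISO). Each group was 1 library, so no difference between groups has a replicate check, no p-value is given, and every interval below is an exact 95% interval for counting error only. Values that follow in runs of 4 are in the order WT+PBS, WT+ISO, KO-labelled+PBS and KO-labelled+ISO. The kept cells numbered 2210, 2264, 2790 and 2039, with 24393687, 29400468, 28555811 and 19357824 UMIs. No cell barcode was shared between libraries. The study's methods describe pooling of the cells before loading, so this follows from the design if a pool was split by tag.

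The study's text names both sexes in one place and female mice in another. In the files, transcripts of the Y chromosome were near 0 in all 4 libraries (Ddx3y at 0.287, 0.238, 0.105 and 0.103 UMIs per 1000000, or CPM) and Xist, made from the inactive X, was at 387.1, 360.1, 389.2 and 359.1 CPM, so no library showed RNA of male cells beyond traces. The treatment field gave isoproterenol for all 4 samples, and the sample titles were followed for which cultures received it.

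Granulocytes and monocytes arise in bone marrow from shared progenitors. Neutrophil precursors first make the proteases of azurophil granules while they still divide, then the proteins of specific granules, and leave the cycle as they mature, whereas monocytes follow a separate branch marked by Ly6c2, Ccr2 and Csf1r. Dividing progenitors make many ribosomes and draw on serine, which Phgdh, Psat1 and Psph make from a glycolytic intermediate and Shmt2 and Mthfd2 pass to the one-carbon units used for nucleotides. Transcription of the serine enzymes is raised by Atf4, the transcription factor of the amino acid response, which binds a CCAAT/enhancer-binding protein and Atf composite element.

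Of the 5 transcripts that chose the cells, Chchd10 had this element written out near its start, and the promoter is shown with that of Asns, asparagine synthetase, a textbook Atf4 target. The windows run 5′ to 3′ on the gene's strand from 250 bases before to 50 bases after the RefSeq start (assembly GRCm38.p6), Chchd10 at chr10:75932880-75933179 on the plus strand and Asns at chr6:7693160-7693459 on the minus strand. Capitals mark the letters TGATGNAA.
Chchd10: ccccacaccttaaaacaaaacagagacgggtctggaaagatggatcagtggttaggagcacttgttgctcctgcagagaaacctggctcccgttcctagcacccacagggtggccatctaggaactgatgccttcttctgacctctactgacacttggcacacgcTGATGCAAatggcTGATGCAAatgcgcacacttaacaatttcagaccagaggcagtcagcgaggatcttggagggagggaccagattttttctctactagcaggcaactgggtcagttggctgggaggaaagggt
Asns: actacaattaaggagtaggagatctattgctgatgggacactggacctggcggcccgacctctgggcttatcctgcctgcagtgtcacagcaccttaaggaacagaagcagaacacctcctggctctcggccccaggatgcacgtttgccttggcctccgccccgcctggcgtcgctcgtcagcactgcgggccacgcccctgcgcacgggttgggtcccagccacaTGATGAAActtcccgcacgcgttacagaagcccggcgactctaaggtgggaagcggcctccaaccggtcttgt
TGATGNAA was searched on both strands and began 85 and 72 bases before the start of Chchd10 and 23 bases before that of Asns. It was in 1219 of 27025 genes with a window (4.51%), in 7 of the 14 genes with a window on the Atf4 target list, and in 1 of 9 on the serine and one-carbon list. Of the transcripts that chose the cells, 3 had a window and Chchd10 alone held the letters. A match is a description of the sequence and not of binding.

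Members differed in which of the 5 transcripts they carried. Psat1, the phosphoserine aminotransferase of serine synthesis (chr19:15905123-15925059), had at least 1 UMI in 660 of 744 members (88.7%) and in 20.9% of the rest. Chchd10, a protein of the mitochondrial intermembrane space (chr10:75933130-75937750), was found in 664 members, against 14.2% of the rest. Matn2, the extracellular matrix protein matrilin 2 (chr15:34306681-34436242), was found in only 255 members (34.3%), Rcn3, a calcium-binding protein of the endoplasmic reticulum (chr7:45082914-45092322), in 233, and Lypd6b, a Ly6 domain protein (chr2:49787340-49948849), in 128. The members were thus Psat1 and Chchd10 cells in most cases, and Matn2 was absent from the UMIs of most of them. Only 9 members held all 5 transcripts, 87 held 4, 296 held 3, 307 held 2 and 45 held 1.

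Psat1 stood at 157.7, 140.5, 170.5 and 179.1 CPM in members, against 39.8, 42.2, 38.2 and 36.5 CPM in the rest. Chchd10 stood at 151.4, 151.6, 130.7 and 123.3 CPM against 24.9, 21.3, 23.8 and 19.0 CPM. Matn2 stood at 15.9, 24.1, 23.2 and 21.1 CPM against 2.96, 2.12, 2.91 and 2.57 CPM. For each of these transcripts every member value lay above every value of the rest, which the choice of cells fixes. At the edge of the choice, the lowest member scored 0.3187 with 3 UMIs of the 5 transcripts among 14266, and the highest cell of the rest scored 0.3183 with 4 among 15252. Within 0.01 of that edge lay 43 members and 58 cells of the rest, so no gap in the score set the members apart.

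At equal depth the transcripts were sparse. When each cell with at least 2000 UMIs was thinned to 2000, Psat1 was left in 6.19% of these 8593 cells and Chchd10 in 4.28%. Among thinned cells with Psat1, 8.46% also had Chchd10, and among those with Chchd10, 12.2% had Psat1. Both shares lay above those in all thinned cells. When all cells were thinned before they were scored, 271 of the members stayed among the 687 cells chosen, which is 36.4% of the members and 39.4% of those cells.

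Members were RNA-rich. Their median was 21681, 24533, 19571 and 18188 UMIs per cell, against 7338, 9254, 7347 and 6861 in the rest, a ratio of 2.65 to 2.96. They also had a median of 4518, 4923, 4236 and 4196 detected genes, against 2133, 2442, 2136 and 1946. The mitochondrial share of UMIs was alike, at 2.54%, 2.15%, 2.58% and 2.69% in members and 2.62%, 2.43%, 2.74% and 2.66% in the rest. Members made up 33.1% of the deepest decile of kept cells and 19.4% of the next, but 0.323% of decile 3, counted from the shallowest. A small second set lay in the shallowest decile, with 26 members, of which 22 owed their score to 1 UMI. The members shared 260 cells (34.9%) with the 8% of kept cells that had the most UMIs. A deep cell has more chances to show a rare transcript, and a scaled value of 1 UMI is large in a shallow cell. Many of the lists and genes below are therefore also set against the rest reweighted to the members' UMI depth in each library. Values of members and the rest given without such a comparison are not matched for depth.

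**Figure D1:**
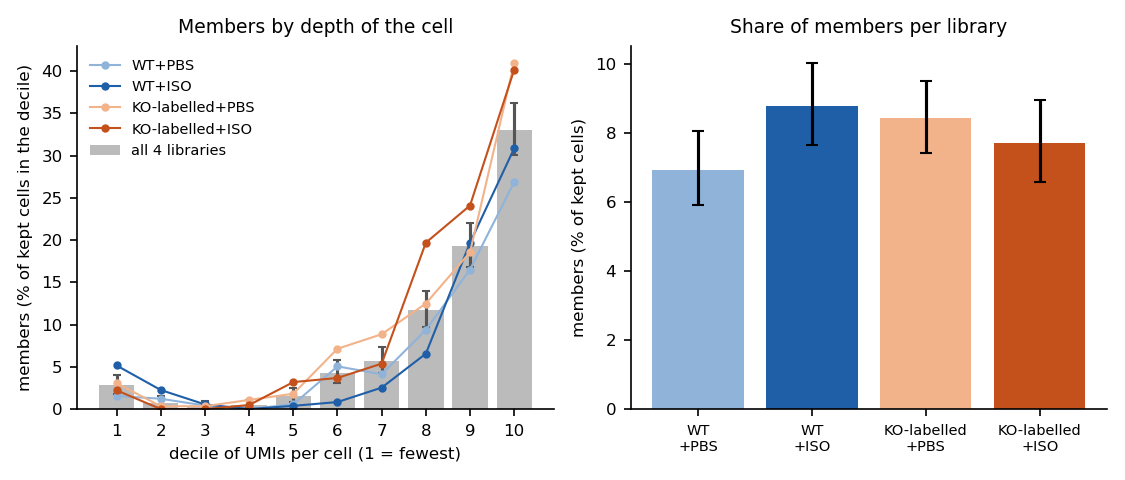
Left, members as a percentage of kept cells (y axis) in each decile of cells ranked by UMIs (x axis), grey bars for all 4 libraries with exact 95% intervals and lines for single libraries. The deepest decile held 33.1% members. Right, members as a percentage of kept cells in each library with exact 95% intervals, from 6.92% in WT+PBS to 8.79% in WT+ISO.

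Members were found in every library. They were 153 cells in WT+PBS (6.92%, 5.90 to 8.06), 199 in WT+ISO (8.79%, 7.66 to 10.0), 235 in KO-labelled+PBS (8.42%, 7.42 to 9.52) and 157 in KO-labelled+ISO (7.70%, 6.58 to 8.94). The ISO share over the PBS share was 1.27-fold in WT (1.02 to 1.58) and 0.914-fold in the KO-labelled pair (0.742 to 1.12). On the log2 scale the ratios were 0.34 in WT and −0.13 in the KO-labelled pair. They were 0.01 and 0.22 when cells were thinned before they were scored. Among cells with at least 3 of the 5 transcripts they were 0.79 and 0.25. WT+ISO also had the deepest cells in the rest. Every member carried mostly the multiplexing tag of its own library, with a median tag share of 95.9%, 97.8%, 98.1% and 84.4%. The study's methods describe pooling of the cells before they were loaded. If the tags then sorted cells into libraries, this match was fixed in advance and is no check. No doublet caller was run, and what part of the deep members held 2 cells of the same library was not tested.

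Around the 5 transcripts, members were high in genes of growth and low in genes of the finished neutrophil. Of 9874 genes with at least 50 UMIs in the members or in the rest of each library, 3955 (40.1%) were higher in members than in the rest in all 4 libraries and 2566 (26.0%) were lower. At least 2-fold in all 4, 83 genes (0.841%) were higher and 304 (3.08%) lower, and against the rest of like UMIs these were 4 (0.0405%) and 96 (0.972%). The 4 were the tested transcripts of the rule. At like UMIs 2570 genes (26.0%) were higher in all 4 and 1512 (15.3%) lower. These shares are the background for the counts that follow, and since the same cells were chosen on RNA content nothing is read from them.

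**Figure D2:**
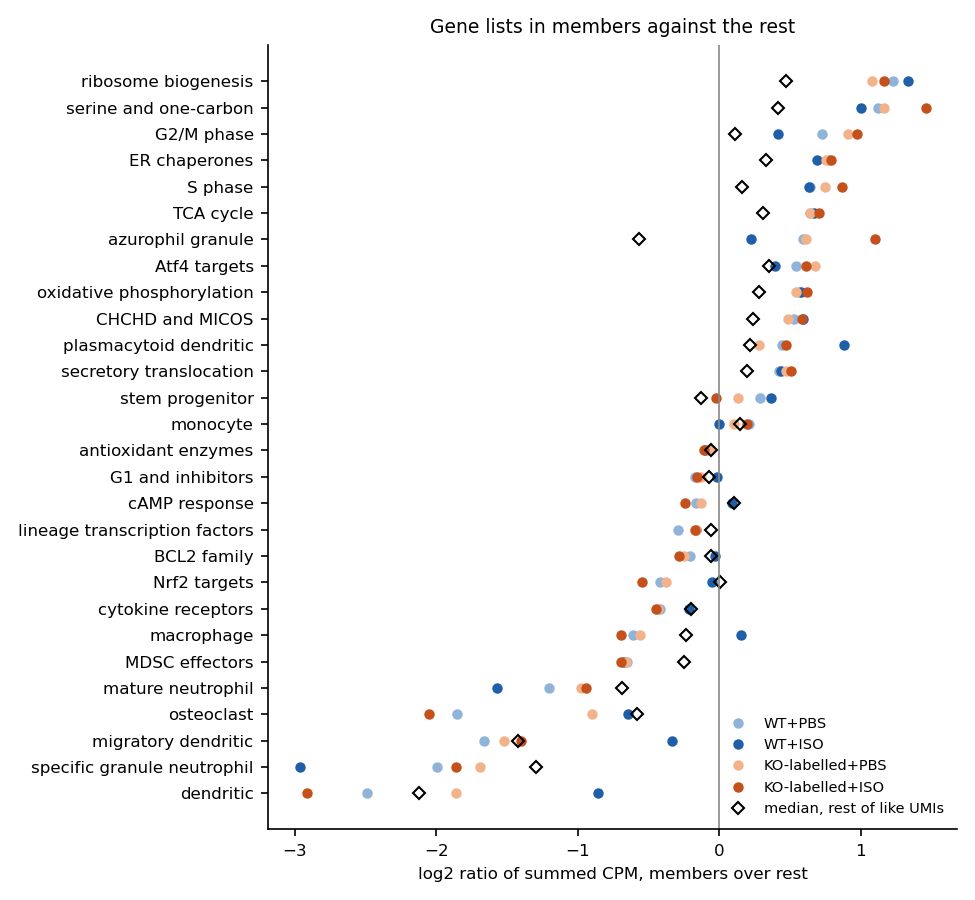
Log2 ratio of the summed CPM of each gene list in members over the rest (x axis), 1 filled point per library, with the median over libraries against the rest of like UMIs as an open diamond. Ribosome biogenesis and serine and one-carbon lists lie above 1, specific granule and dendritic lists lie lowest, and the azurophil granule list changes sign when depth is matched.

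Genes of serine and one-carbon metabolism were high. All 8 tested genes of the list, which was kept free of Psat1, were higher in all 4 libraries, and 7 were against cells of like depth, where the share of all genes was 26.0%. The summed list was at 857.5, 799.1, 923.2 and 945.4 CPM in members against 393.7, 399.1, 412.4 and 343.5 CPM in the rest, a median of 2.21-fold that was 1.33-fold at like depth. Phgdh, the first enzyme of serine synthesis, was at 337.1, 343.2, 318.1 and 359.3 CPM in members and 122.2, 147.6, 110.5 and 87.9 CPM in the rest, a median 2.82-fold that was 1.43-fold against cells of like depth. Shmt2, the mitochondrial serine hydroxymethyltransferase, was at 72.7, 58.8, 86.4 and 76.9 CPM against 21.7, 21.4, 25.2 and 19.2 CPM, 3.39-fold and 1.83-fold. Members and the rest did not overlap for either gene. Both were also among the genes picked for the highest ratios against the rest, which favours such a gap. No share of all genes without overlap is given, so nothing further is read from it. Psph, the last enzyme of the serine pathway, was 2.27-fold higher, Shmt1 2.53-fold and Mthfd2 1.88-fold, and at like depth 1.24-fold, 1.36-fold and 1.23-fold.

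Of 17 genes on the Atf4 list, 15 were higher in all 4 libraries and 2 lower, and at like depth 12 were higher in all 4 and none lower (all genes, 26.0% and 15.3%), with a median log2 of the sum of 0.58 and 0.35. Asns was at 92.8, 48.1, 156.3 and 143.7 CPM in members and 43.2, 33.6, 65.3 and 54.8 CPM in the rest. Slc7a5, an amino acid transporter, was 2.24-fold higher, Trib3, an inhibitor of Atf4, 1.93-fold and Atf4 itself 1.71-fold. The 2 lower ones were Slc7a11, the cystine transporter, at 0.459-fold, and Sesn2, a stress-induced inhibitor of mTORC1, at 0.901-fold. At like depth they were at 0.715-fold and 1.08-fold, with libraries on both sides.

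Ribosome biogenesis was the list with the highest median ratio, a log2 of 1.20 with a range of 1.08 to 1.34, and 0.47 against cells of like depth. Of its 18 tested genes 17 were higher in all 4 libraries, and 15 were at like depth (all genes, 40.1% and 26.0%). The sum was 4560, 5101, 3145 and 2908 CPM in members and 1949, 2020, 1490 and 1295 CPM in the rest. Npm1, a nucleolar chaperone of ribosome assembly, was at 1737, 1807, 1333 and 1201 CPM in members and 679.0, 657.7, 575.1 and 490.9 CPM in the rest, 2.50-fold, and 1.5-fold at like depth. Nolc1 and Nop56, both nucleolar factors of small nucleolar RNA complexes, were 2.58-fold and 2.51-fold higher, Srm, spermidine synthase and a known Myc target, 2.71-fold, and Myc 1.69-fold. At like depth these 4 were at 1.51-fold, 1.42-fold, 1.51-fold and 1.07-fold. In members and in the rest alike, the WT libraries were higher than the KO-labelled ones. The Myc binding letters CACGTG were in the promoter window of 1 of 14 genes of this list (7.14%) and in 8.09% of all genes.

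Protein folding and mitochondrial lists moved the same way. All 15 tested chaperones of the endoplasmic reticulum, where Rcn3 resides, were higher in all 4 libraries, with a median log2 of 0.77 for the sum and 0.33 at like depth. At like depth 13 were higher in all 4. Of all genes 40.1% were, and 26.0% at like depth, which is also the background for the mitochondrial lists. Hspa5, its main Hsp70 chaperone, was at 703.8, 657.4, 442.1 and 416.7 CPM in members against 369.6, 396.9, 249.9 and 224.3 CPM in the rest. Calr, a lectin chaperone, was 1.89-fold and Sdf2l1, an Hspa5 partner, 1.90-fold, and at like depth 1.26-fold and 1.23-fold. Of 20 oxidative phosphorylation genes all 20 were higher in all 4, with a median log2 of 0.57 and 0.28 at like depth, with all 20 higher there too. The same direction held for 11 of 12 genes of the CHCHD and MICOS list, which holds relatives of Chchd10 but not Chchd10 itself, and for 8 of them at like depth. Hspd1, the mitochondrial chaperonin, was 2.78-fold and C1qbp, a mitochondrial matrix protein, 2.79-fold, and at like depth 1.61-fold and 1.53-fold. Of 19 tricarboxylic acid cycle genes 17 were higher (14 at like depth) and 1 lower, Acod1, the enzyme that makes itaconate, at 0.261-fold, which was 0.909-fold at like depth.

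Genes outside the lists were also among those with the highest ratios. Kcnq5, a voltage-gated potassium channel, was at 77.3, 70.6, 46.8 and 34.1 CPM in members and 21.6, 15.7, 11.3 and 10.6 CPM in the rest. Scd1, the stearoyl-CoA desaturase, was 2.72-fold, Fkbp11, a prolyl isomerase of the secretory pathway, 2.94-fold. At like depth these 3 were at 1.97-fold, 1.94-fold and 1.58-fold.

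By marker lists the members held transcripts of both the granulocyte and the monocyte branch. Late neutrophil genes were low. Retnlg, a marker of mature neutrophils, was at 6.63, 2.88, 2.67 and 3.34 CPM in members against 161.5, 192.1, 175.8 and 319.8 CPM in the rest. Mmp9, gelatinase of the late granules, was at 6.63, 3.50, 6.46 and 3.01 CPM against 121.4, 122.7, 113.9 and 140.2 CPM. At like depth these were 0.119-fold and 0.262-fold. All 7 genes of the mature neutrophil list were lower in all 4 libraries, and its sum, mostly S100a8 and S100a9, was at 52950, 49490, 58630 and 68250 CPM in members and 122200, 147200, 115200 and 130800 CPM in the rest. S100a8, which early myeloid cells also make, was still at 0.518-fold. At like depth the list was at 0.620-fold, with 6 of 7 genes lower in all 4. Of all genes 26.0% were lower in all 4, and 15.3% at like depth.

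The specific granule list was lower still. Ltf, lactoferrin, was at 55.4, 48.6, 73.2 and 87.6 CPM in members against 1451, 2234, 1405 and 1850 CPM in the rest. Camp, the cathelicidin, was at 39.2, 68.1, 94.2 and 216.9 CPM against 2223, 3415, 2166 and 3145 CPM. Members and the rest did not overlap for either gene. Both were also among the genes picked for the lowest ratios against the rest, which favours such a gap, and no share of all genes is given. All 7 genes of the list were lower in all 4 libraries, at like depth too. The median ratio was 0.0425-fold for Ltf, 0.0294-fold for Camp and 0.263-fold for the list, and at like depth 0.133-fold, 0.0626-fold and 0.408-fold. Cebpe, the transcription factor of specific granule formation, was at 0.352-fold.

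The azurophil list, the earliest of the 3 granulocyte lists, was higher in members, and lower once depth was matched. Its sum was 5923, 6245, 4409 and 4257 CPM in members and 3924, 5340, 2882 and 1985 CPM in the rest, with 4 of 6 genes higher in all 4 libraries (all genes, 40.1%). Mpo, myeloperoxidase, was at 641.8, 490.3, 409.4 and 273.4 CPM against 327.2, 349.6, 214.9 and 102.8 CPM, 1.93-fold, but 0.750-fold against cells of like UMIs. Ctsg, cathepsin G, was 2.29-fold and 0.899-fold. The members were therefore no richer in azurophil transcripts than other deep cells of their library.

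Monocyte transcripts were near the level of the rest as a list, at 1872, 1527, 2100 and 2126 CPM against 1619, 1529, 1948 and 1859 CPM, a median log2 of 0.15 with and without matching of depth. F13a1, the coagulation factor XIII A chain made by monocytes, was higher in each library, at 478.6, 246.1, 658.3 and 566.4 CPM against 229.1, 74.7, 442.8 and 387.5 CPM, and Ccr2, the receptor that brings monocytes out of marrow, was 1.39-fold. Csf1r, the receptor for macrophage growth factor, was lower at 0.632-fold, and 0.841-fold at like depth. Among progenitor genes Kit, the stem cell factor receptor, was at 0.247-fold, Cd34 was at 2.60 CPM or less in every library's members, and Myb, a progenitor transcription factor, was at 1.18-fold. Sox4 and Hoxa9, too sparse to be tested, were at 1.78-fold and 4.52-fold, so the stem and progenitor genes did not share a direction. At like depth Kit was at 0.460-fold, Myb at 0.695-fold, Sox4 at 1.49-fold and Hoxa9 at 2.34-fold.

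Other marker lists were mostly lower or sparse. The dendritic list was at 204.7, 195.9, 366.4 and 135.7 CPM in members against 1153, 354.2, 1328 and 1023 CPM in the rest, with H2-Aa, an MHC class II chain, at 0.0716-fold and at 0.0713-fold at like depth. The macrophage list was at 98.9, 67.7, 195.7 and 139.0 CPM against 151.0, 60.7, 289.1 and 224.8 CPM, with Adgre1, which encodes F4/80, its most abundant gene. Erythroid genes summed to at most 0.577 CPM and stromal genes to at most 0.412 CPM in members. Besides the azurophil list, 2 of 17 marker lists were higher in all 4 libraries. They were the plasmacytoid dendritic list, of which 75.2% was Bst2, which other myeloid cells express too, and the B cell list, at 5.57 to 10.5 CPM and 80.5% Cd79b. At like depth the plasmacytoid dendritic list stayed higher in all 4 and the B cell list did not.

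Cell by cell, the leading marker list was the one with the highest ratio of summed UMIs to its mean over all kept cells, among 719 members thinned to 2000 UMIs. The 25 shallower members (3, 8, 9 and 5 per library) were left out. The azurophil list led in 159 members (22.1%), the monocyte list in 136 (18.9%) and the plasmacytoid dendritic list in 131 (18.2%), against 8.01%, 9.82% and 9.16% of the rest. The specific granule list led in 9 members (1.25%) and the mature neutrophil list in 46 (6.40%), against 20.8% and 16.8%. The macrophage list led in 76 (10.6%) and the stem and progenitor list in 50 (6.95%), against 8.60% and 5.16%. A single UMI of a sparse list can lead under this rule, so a minimum of 3 UMIs was added after the values were seen. With it the monocyte list led in 252 members (35.1%), the azurophil list in 250 (34.8%) and the mature neutrophil list in 134 (18.6%), while the plasmacytoid dendritic list led in 3 (0.417%). In 123 members (17.1%) a second list came within 1.5-fold of the leading one.

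With that minimum, the azurophil list led in 36.7% of WT+PBS members (29.0 to 44.9), 46.1% of WT+ISO (38.9 to 53.4), 24.8% of KO-labelled+PBS (19.3 to 30.9) and 33.6% of KO-labelled+ISO members (26.1 to 41.7). The monocyte list led in 40.7% (32.7 to 49.0), 22.0% (16.3 to 28.5), 40.3% (33.8 to 47.0) and 38.2% (30.4 to 46.4). WT+ISO was the lowest for the monocyte list and the highest for the azurophil list. The same held in the rest, at 14.9%, 13.77%, 19.18% and 17.85% for monocyte-led cells. For azurophil-led cells the rest was at 11.23%, 16.96%, 7.80% and 5.99%. Without the minimum the monocyte shares were 24.7%, 11.5% (7.36 to 16.9), 19.5% (14.5 to 25.2) and 21.7% (15.4 to 29.1), with WT+ISO again lowest but overlapping both KO-labelled libraries in its interval.

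Ribosome biogenesis and serine and one-carbon genes were higher in members under each leading list given here. Depth was not matched in these ratios, and members were deeper than the rest under each list. Among monocyte-led cells, members exceeded the rest 1.59-fold for ribosome biogenesis and 1.86-fold for serine and one-carbon genes, with a median of 19198 against 13069 UMIs. Among azurophil-led cells the ratios were 1.59-fold and 1.39-fold, with 26661 against 21778 UMIs. Among cells led by the mature neutrophil list they were 2.42-fold and 2.59-fold, with 18903 against 5373 UMIs. The latter members carried that list at 0.471 times the level of the rest led by it.

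**Figure D3:**
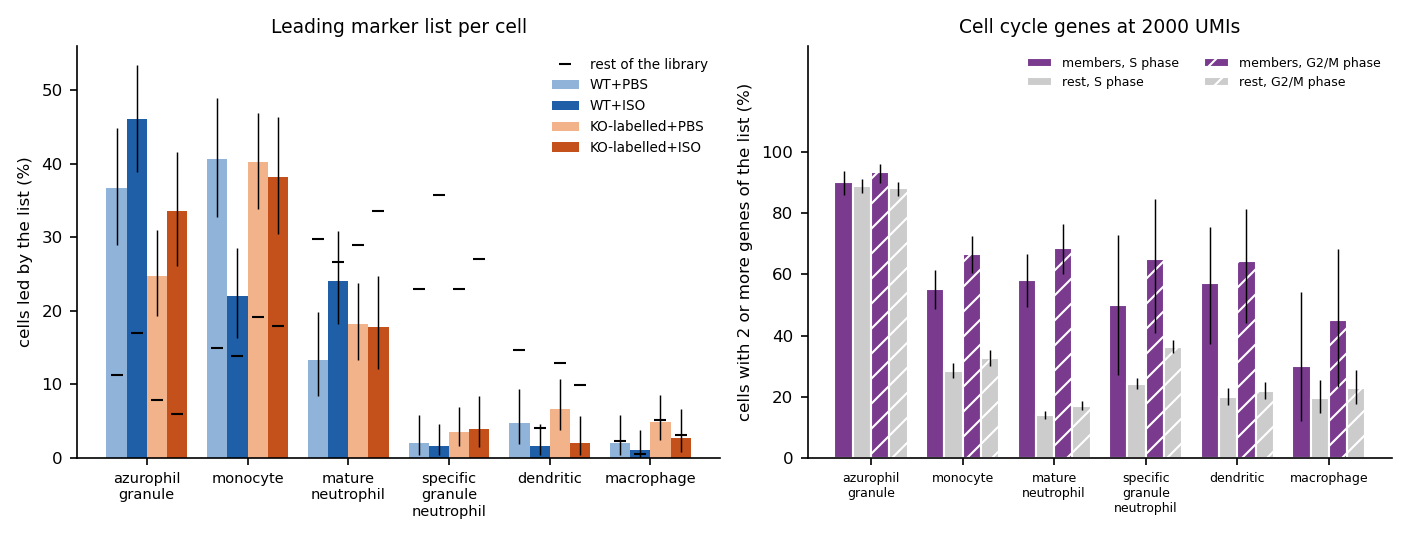
Left, cells led by each of 6 marker lists (y axis, % of cells thinned to 2000 UMIs, minimum of 3 UMIs) in members by library (bars, exact 95% intervals) and in the rest (dashes). Right, members and the rest with at least 2 detected S or G2/M phase genes (y axis, %), by leading list, all libraries together. Azurophil-led members and rest both lie near 90%, whereas in monocyte-led and mature neutrophil-led cells members lie above the rest.

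Transcripts of the dividing cell were found in more members than cells of the rest. In cells thinned to 2000 UMIs, at least 2 of the S phase genes were found in 68.7%, 79.1%, 62.8% and 57.2% of members and in 30.5%, 34.9%, 24.0% and 21.9% of the rest. At least 2 G2/M genes were found in 77.3%, 82.7%, 74.8% and 66.5% of members and in 33.6%, 42.3%, 28.4% and 27.7% of the rest. Members lay above the rest of every library, and 83.6% of them passed for S or G2/M against 39.3% of the rest. Unthinned, these were 95.2% and 57.7%. RNA free in the droplets was not measured and its part in these shares was not tested.

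By gene, all 26 S phase and all 25 G2/M genes tested were higher in members in all 4 libraries, but against cells of like depth 14 and 3 were, with 1 S phase gene lower (all genes, 26.0% and 15.3%). Ung, the uracil DNA glycosylase of S phase, was at 15.6, 16.9, 12.5 and 10.7 CPM against 7.46, 5.38, 5.28 and 4.83 CPM. Mki67, the proliferation marker Ki-67, was at 253.1, 215.8, 260.9 and 248.0 CPM against 157.1, 181.3, 139.7 and 132.7 CPM. Plk1 and Ccnb1, which drive entry to mitosis, were 2.07-fold and 2.05-fold, and 1.14-fold and 1.1-fold at like depth. Cdk4, the G1 kinase, was at 198.1, 230.8, 179.7 and 161.4 CPM against 105.1, 107.3, 87.4 and 83.2 CPM. Of the list of G1 and inhibitor genes, to which Cdk4 belongs, 4 of 16 were higher and 7 lower in all 4 libraries, and at like depth 2 and 3. Among the lower ones, the antiproliferative genes Btg1 and Btg2 were at 0.449-fold and 0.487-fold, and Cdkn1b, the inhibitor p27, at 0.660-fold, and at like depth 0.695-fold, 0.749-fold and 0.860-fold. At like depth the median log2 of the summed lists was 0.16 for S phase and 0.12 for G2/M, so other deep cells were close to members.

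By leading list, with the minimum of 3 UMIs, the S phase share was 90.4% in azurophil-led members and 89.1% in the azurophil-led rest. In monocyte-led cells it was 55.2% in members and 28.4% in the rest, and in mature neutrophil-led cells 58.2% and 13.9%. The G2/M share gave the same order, 93.6% against 88.3%, 66.7% against 32.6% and 68.7% against 17.0%. The gap between members and the rest was thus small in azurophil-led cells, with the G2/M share of members somewhat the higher, and wide under the other 2 lists.

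The members of WT+ISO were next compared with those of WT+PBS, as a description of the difference between these libraries, each without a replicate. Of 8803 genes with at least 50 UMIs in both together, 48 (0.545%) were at least 2-fold higher with ISO and 42 (0.477%) at least 2-fold lower, with a median log2 over all genes of 0.04. The named genes with the largest differences in each direction included cytokines and growth factors.

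Csf1, the macrophage growth factor, had 83 UMIs in 24 cells in WT+PBS and 18 UMIs in 15 cells in WT+ISO, or 23.9 and 3.70 CPM, a log2 of −2.69 (−3.52 to −1.94). Il1b, interleukin 1β, went from 62.3 to 18.3 CPM, −1.77 (−2.14 to −1.40). Ccl4, a chemokine for monocytes and T cells, went from 192.0 to 49.0 CPM, −1.97 (−2.19 to −1.76), carried by 30 and 40 cells. All of these were lower with ISO in WT members, and in the WT rest too, at −1.15 for Csf1, −1.5 for Il1b and −0.96 for Ccl4. Mgl2, a C-type lectin of alternatively activated macrophages and dendritic cells, was also lower, at 147.6 and 62.1 CPM (−1.25, and −1.68 in the rest), and Fn1, fibronectin, had 347 and 223 UMIs, −1.13. Ccl4 went the other way within the mature neutrophil-led members, at 2.13.

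Higher with ISO was Cxcl3, a chemokine for neutrophils, with 10 UMIs in 7 cells and 92 in 26, or 2.88 and 18.9 CPM, 2.72 (1.77 to 3.82). Il1f9, interleukin 36γ, had 23 and 102 UMIs, 1.66 (1.00 to 2.38). Ptgs1, cyclooxygenase 1, went from 19.9 to 46.7 CPM, 1.23 (0.84 to 1.64), and Mmp8, neutrophil collagenase, from 132.6 to 286.0 CPM, 1.11 (0.96 to 1.26). The same 4 genes were higher in the WT rest, at 0.78, 0.76, 0.82 and 0.77. The Mmp8 difference in members was −0.61 within the azurophil-led members. Slc22a4, a carrier of ergothioneine and carnitine, was at 1.35, and Snhg15, a small nucleolar RNA host gene, at 1.15.

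**Figure D4:**
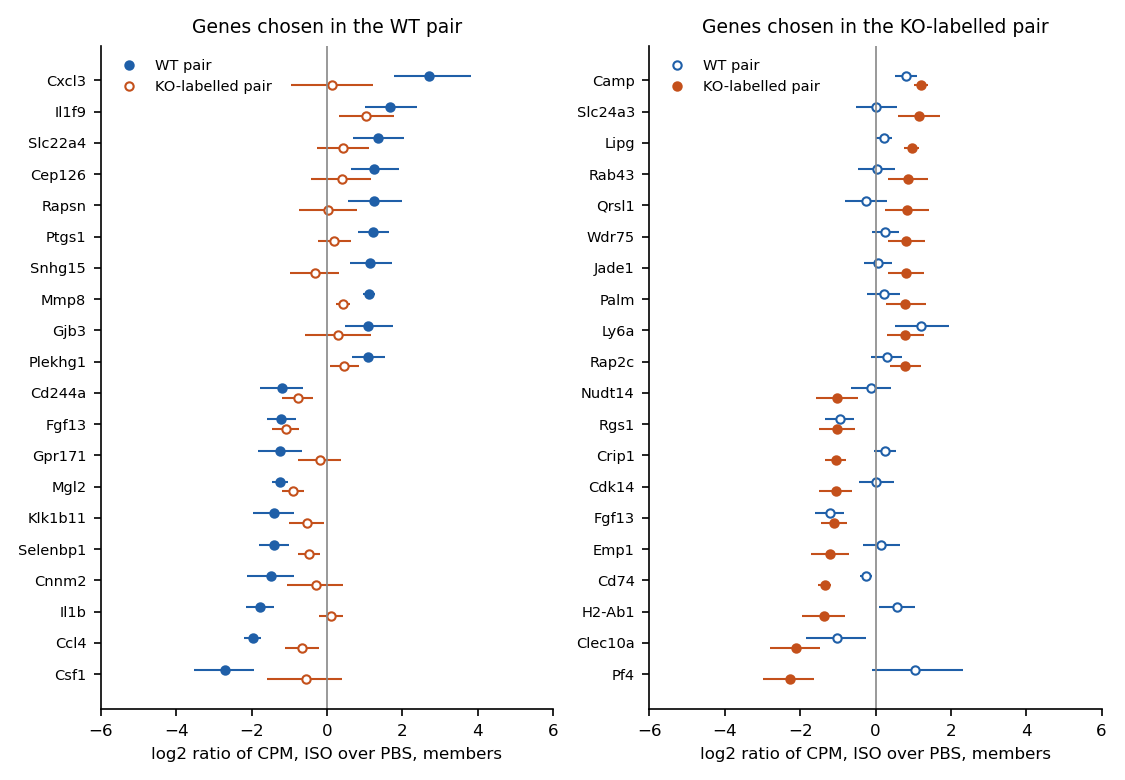
Log2 ratio of CPM with ISO over PBS in members (x axis) for genes named by the size of their ratio in the WT pair (left) and in the KO-labelled pair (right), with exact 95% counting intervals. Filled points are the pair that chose the gene and open points the other pair. Csf1, Ccl4 and Il1b lie lowest in WT, and Pf4 and Clec10a in the KO-labelled pair.

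The KO-labelled pair shared some of these directions. Il1f9 was at 1.05 (0.32 to 1.79) and Mmp8 at 0.41 (0.23 to 0.60), higher with ISO as in WT. Csf1 was at −0.56 (−1.59 to 0.39), Il1b at 0.11 (−0.22 to 0.43) and Cxcl3 at 0.15, whereas Ccl4 was at −0.66 and Mgl2 at −0.90, the direction seen in WT. The difference between the pairs was not tested, since each rests on 1 library a group.

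Nrf2 targets, the genes of the antioxidant and iron-storage response, were the list with the largest WT difference among those of 10 or more tested genes. The sum was 20190 CPM in WT+PBS and 29250 CPM in WT+ISO members, a log2 of 0.54 (0.52 to 0.55), against 21440 and 21700 CPM in the KO-labelled pair, 0.02. In the rest the list differed by 0.16 in WT and 0.18 in the KO-labelled pair. Of 15 tested genes 4 were at least 2-fold higher in WT, where the background was 0.545%, and in all 11 had intervals above 0 and 2 below it, against 972 (11%) and 623 (7.08%) of all 8803 genes. In the KO-labelled pair none of 13 was 2-fold higher, where the background was 0.209%. The median log2 over the tested genes of the list was 0.15 in that pair and 0.51 in WT.

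Hmox1, heme oxygenase 1, stood at 74.7, 158.8, 92.8 and 144.0 CPM in members. Slc7a11 stood at 80.2, 168.1, 75.2 and 80.5 CPM, so WT+ISO alone was high. Gclm, the modifier subunit of glutathione synthesis, differed by 0.78 in WT and 0.37 in the KO-labelled pair. The ferritin chains made up most of the sum, with Ftl1 at 9619 and 13550 CPM and Fth1 at 8680 and 13300 CPM in WT, while both differed by less than 0.01 in the KO-labelled pair. Within azurophil-led and monocyte-led KO-labelled members, however, Fth1 was at 0.57 (0.50 to 0.64) and 0.34 (0.31 to 0.38). Nqo1, a quinone reductase and classical target, had 16 and 50 UMIs, 1.16. Nfe2l2, the gene of Nrf2 itself, and Mgst1 were lower in WT+ISO. Within azurophil-led, monocyte-led and mature neutrophil-led members the WT difference of the list was 0.37, 0.78 and 0.91, and 0.15, 0.23 and −0.01 in the KO-labelled pair.

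**Figure D5:**
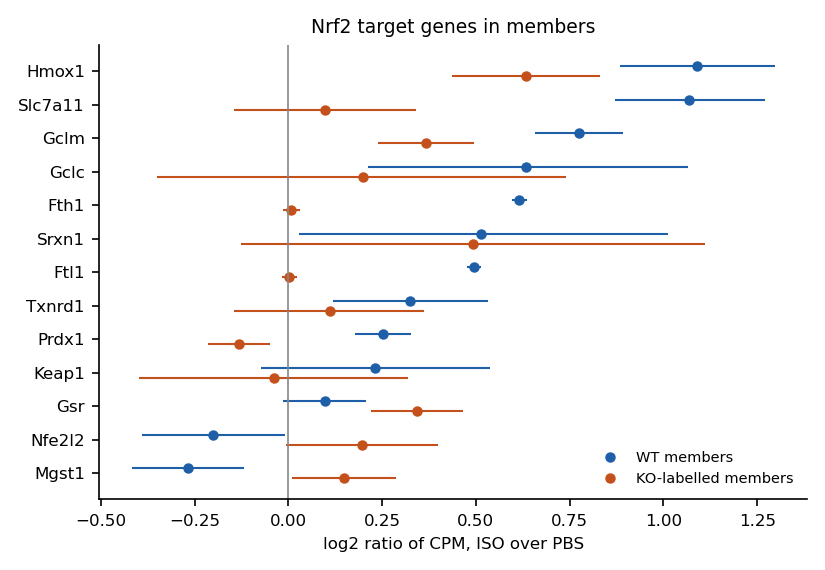
Log2 ratio of CPM with ISO over PBS in members (x axis) for Nrf2 target genes tested in both pairs (y axis), WT in blue and KO-labelled in orange, with exact 95% counting intervals. Fth1 and Ftl1 lie at 0.62 and 0.50 in WT and near 0 in the KO-labelled pair, and Hmox1 lies above 0 in both.

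The other WT lists of 10 or more tested genes differed less. Some lists with fewer tested genes differed as much or more. The macrophage list was at −0.55 (−0.77 to −0.325) with 3 tested genes, and at −1.32 in the WT rest. With 1 tested gene each, the T and NK cell list was at −1.19 and the B cell list at 0.60. Ribosome biogenesis was at 0.16, with 13 of 19 intervals above 0 (all genes, 11%), and at −0.11 in the KO-labelled pair. Atf4 targets were at −0.21, with Asns going from 92.8 to 48.1 CPM and Trib3 from 26.5 to 14.0 CPM, and at −0.02 in the KO-labelled pair. In WT 8 of 17 tested Atf4 targets had intervals below 0 and 1 above it (all genes, 7.08% and 11%). Slc7a11 went the other way, at 1.07. The serine and one-carbon list was at −0.10 and 0.03, S phase at 0.13 and 0.02, and G2/M at −0.08 and −0.01. The WT value of G2/M turned to 0.15 when cells were thinned before scoring and to 0.02 with 5% of cells. The cAMP response list, the transcripts classically raised by cyclic AMP signalling, was at −0.17 and −0.06. Of its 12 tested genes none was 2-fold higher in either pair, where the background was 0.545% and 0.209%. In the KO-labelled pair 1 was 2-fold lower, where the background was 0.475%. The monocyte list was at −0.29 in WT, the pair in which the monocyte-led share differed too, and its part in the gene differences was not tested.

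The granulocyte lists did not move together. The specific granule list was at −0.50 in WT members and 0.47 in the WT rest, and its members' value was set by Chil3, a chitinase-like lectin, which went from 4094 to 2565 CPM, while Camp was at 0.80. The mature neutrophil list was at −0.10 in WT and 0.22 in the KO-labelled pair. When cells were thinned before they were scored, the WT values of the 2 lists turned to 0.10 and 0.08.

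In the KO-labelled pair, of 8630 genes 18 (0.209%) were at least 2-fold higher with ISO and 41 (0.475%) at least 2-fold lower, with a median log2 over all genes of 0.00. Among the lower genes were some that macrophages and dendritic cells make. Clec10a, a lectin of conventional dendritic cells and macrophages, had 149 UMIs in KO-labelled+PBS members and 23 in KO-labelled+ISO, 33.2 and 7.69 CPM, a log2 of −2.11. Pf4, platelet factor 4, which macrophages also make, had 160 and 22 UMIs, −2.28 (−2.99 to −1.63). H2-Ab1, an MHC class II chain, was at −1.36 with 131 and 34 UMIs, and H2-Aa had 61 UMIs in 13 cells and 6 in 5. These counts rested on few cells. All 5 tested genes of the dendritic list were at least 2-fold lower, where the background was 0.475%, and the sum was at −1.43, against −0.38 in the KO-labelled rest. With the minimum of 3 UMIs, the dendritic list led in 6.64% of KO-labelled+PBS members and in 1.97% of KO-labelled+ISO members. Within azurophil-led and monocyte-led members of the pair the sum was at 0.18 (−0.68 to 1.04) and −0.41 (−0.66 to −0.15).

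In WT the dendritic list was at −0.06 in members and −1.70 in the rest. H2-Aa went from 24 UMIs in 7 cells to 100 in 13 in WT members, from 6.92 to 20.6 CPM, and from 123.7 to 38.8 CPM in the WT rest. H2-Ab1 was at 0.57 (0.09 to 1.06) and Pf4 at 1.04 (−0.10 to 2.32) in WT members. The class II chains H2-Aa and H2-Ab1 thus lay on opposite sides in the 2 pairs, whereas Cd74, the invariant chain and most of the list, was lower in both, at −0.25 in WT and −1.35 in the KO-labelled pair. H2-Ab1 was at 0.16 in the KO-labelled pair when 12% of kept cells were taken.

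Higher with ISO in the KO-labelled members was Camp, with 423 and 649 UMIs, 94.2 and 216.9 CPM, a log2 of 1.20 (1.03 to 1.38). It was at −0.12 when 5% of kept cells were taken and at −0.20 within monocyte-led members. Slc24a3, a sodium, potassium and calcium exchanger, was at 1.14, though at −0.42 in cells chosen after thinning. Ly6a, the stem cell antigen Sca-1, was at 0.79, and at 1.22 in WT. Fgf13, an intracellular fibroblast growth factor homologue, was lower in both pairs, at −1.09 and at −1.21 in WT, though at 0.08 (−0.38 to 0.54) within monocyte-led KO-labelled members. Lower in both was also Rgs1, a regulator of G protein signalling, at −1.02 and −0.95. Single cells could set a value. Prg2, an eosinophil granule protein, had 1433 UMIs in KO-labelled+PBS members, of which 1429 were in 1 cell, and that cell also held 387 of 388 UMIs of Epx, eosinophil peroxidase.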

How the data were processed

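Per the labels and the study's methods, libraries were made on the 10x Genomics platform from sorted cells carrying feature barcode tags and sequenced on a NovaSeq. The submitters' processing notes name Cell Ranger 6.0.0, Seurat and mm10, whereas the deposited matrices carry a Cell Ranger 7.0.0 header, and whether introns were counted is not given in the sources used here. The deposited values are filtered matrices of raw counts (UMIs per gene and cell) with 32285 genes and 12 multiplexing tags.

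Counts were summed over member cells and over the rest of each library and divided by their total (CPM, per 1000000). Members were compared with the rest for genes with at least 50 UMIs in either set in each library, and ISO with PBS for genes with at least 50 UMIs in both libraries together. Called means at least 2-fold. Cells with fewer than 2000 UMIs were left out of thinned values. Shares have Clopper-Pearson intervals, levels Poisson intervals and ratios conditional binomial intervals. UMIs of 1 cell are not independent samples, so intervals cover counting error only. Named genes were the 5 of the rule, those of 17 marker and 20 pathway lists, the 20 highest and 10 lowest against the rest with at least 50 member UMIs in each library, and per genotype the 10 largest ISO differences each way with at least 100 UMIs, at least 20 cells in the higher library and an interval that left out 0. Members and lists were chosen with earlier results of these data known. The authors' tag counts were set beside each cell's library, which is no independent check if those tags sorted the pooled cells. Alternatives are in the closing section. Scripts were tested on simulated counts (Python 3.11.15, numpy 2.4.6, scipy 1.17.1, pandas 2.3.3). Of 427 list entries 425 matched a gene symbol, and gene positions are RefSeq's (GRCm38.p6), matched by symbol. The gene deleted in the knockout mice is not reported here.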

Additional observations from a re-analysis of the deposited data

Results flagged for a closer look

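The ISO difference in members had opposite signs in WT and in the KO-labelled pair for the results below, among others, and with 1 library a group the difference between the pairs was not tested. The specific granule list was at −0.50 on the log2 scale in WT and 0.10 in the KO-labelled pair, but the WT value was 0.097 when cells were thinned before scoring and the KO-labelled one −0.023 with 5% of cells. The ribosome biogenesis list was at 0.16 and −0.11. The mature neutrophil list was at −0.10 and 0.22, the azurophil list at 0.08 and −0.05 and the MDSC effector list at −0.09 and 0.14, and the WT sign of each turned under at least 1 alternative. H2-Ab1 was at 0.57 and −1.36, the latter being 0.16 with 12% of cells. The share of members among kept cells was at 0.34 and −0.13, and the interval of the latter includes 0. It was 0.012 and 0.22 after thinning, and 0.79 and 0.25 among cells with at least 3 of the 5 transcripts, so the opposite signs did not hold there.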

How the results depend on the processing

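No paired analysis was possible because the number 1 that all titles carry leaves each group a lone library. Left-out replicates could not be tried for the same reason. Of 136 alternative values for the counts and shares that answer a comparison, 90 stayed close to the reported one and 46 moved, and of 1371 for single genes and lists 250 moved and 28 changed sign. Causes were not tested.

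Genes at least 2-fold higher in members numbered 4 in place of 83, and 2-fold lower 96 in place of 304, against the rest of like UMIs. Marker lists higher in all 4 libraries numbered 5 in place of 3 with 12% of cells, without Matn2 or without Rcn3, and 1 without Psat1, and lower ones 2 in place of 7 after thinning. Pathway lists lower in all 4 numbered 3 in place of 8 without Psat1 and 4 at like depth. The G2/M share of 75.7% was 71.0% with 12% of cells, 65.9% after thinning before scoring, 58.5% without Psat1, 85.1% and 66.9% with at least 1 or 3 genes, and 60.7% and 83.1% at 1000 or 4000 UMIs. The S share of 67.2% was 56.2% after thinning before scoring, 53.2% without Psat1, 62.6% without Chchd10, 84.4% and 52.2% with at least 1 or 3 genes, and 43.9% and 81.7% at 1000 or 4000 UMIs. The log2 ratio of member shares was 0.012 in WT and 0.22 in the KO-labelled pair after thinning, and 0.79 and 0.25 among cells with at least 3 of the 5 transcripts. With at least 3 UMIs for a leading list the shares were 34.8% azurophil, 35.1% monocyte, 18.6% mature neutrophil and 0.417% plasmacytoid dendritic.

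Genes 2-fold higher with ISO in WT (48) were 98 with each cell weighted equally, 1535 with a minimum of 1 UMI and 6 with 200, and lower ones (42) were 74, 2110 and 9. In the KO-labelled pair higher genes (18) were 40, 2147 and 1, 11 with 5% of cells and 28 after thinning, and lower ones (41) were 63, 549 and 7, and 27 with 5% of cells.

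Signs changed as follows, on the log2 scale of ISO over PBS. In the KO-labelled pair with 5% of cells Camp was at −0.12 and the specific granule list at −0.023, and with 12% H2-Ab1 was at 0.16. After thinning before scoring, Cdk14 was at 0.22, Palm at −0.23, Qrsl1 at −0.035, Slc24a3 at −0.42 and the BCL2 family at 0.006, and without the deepest 5% of cells the azurophil list was at 0.005. In WT after thinning G2/M was at 0.15, mature neutrophil at 0.083, MDSC effectors at 0.088, specific granule at 0.10 and T and NK cell at 0.30, with 5% of cells G2/M was at 0.023 and mature neutrophil at 0.008, and with 12% azurophil was at −0.039. Within monocyte-led KO-labelled members Camp was at −0.20, Fgf13 at 0.083 and Lipg at −0.22, and within mature neutrophil-led ones the Nrf2 list was at −0.009. In WT, Ccl4 was at 2.13 within mature neutrophil-led and Mmp8 at −0.61 within azurophil-led members. For members over the rest, azurophil was at −0.11 without Psat1 and −0.56 at like depth, Nrf2 targets at 0.012 and 0.007, and the matrilin and Lypd family at 0.14 at like depth.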
